A study of Mus musculus with 6 samples.

Results

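Of the 1915 mouse microRNA names in the count table, 324 lack the 5p or 3p suffix that says from which side of the hairpin a strand comes. The 36 names described here were chosen by their raw counts. They are those of the 324 with a summed count of at least 10 over the 6 libraries, after miR-451a, miR-484 and miR-28c were left out. A further 192 names without an arm had no count, and 93 had between 1 and 9. The summed count is therefore given as a description only. At the edge of the rule stood miR-6364 and miR-6407 with 10 counts each inside and miR-8094 with 9 counts outside.

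The libraries were small RNA from 3 mouse oviducts and 3 primary tumors whose tissue is given as oviduct and which the labels call ADT tumors. All 6 carried the D1693N allele of Dicer1, the oviducts beside a normal allele (Dicer1+/D1693N) and the tumors beside a knocked-out allele (Dicer1ko/D1693N). No treatment was given, and age, sex, the driver of the knockout and the number of animals are not in the labels, so p-values measure only the spread between these samples. An oviduct library held 297039 to 580390 mouse counts, and a tumor library 154002 to 272167. Genotype, tissue state and a tag in the column names changed together, so they cannot be told apart.

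Most microRNAs are cut from a hairpin by Drosha and Dicer, and each hairpin can yield a 5p and a 3p strand. A name without an arm usually marks an entry for which a single strand was recorded. Some such entries lie in repeated DNA or inside other small RNAs, such as snoRNAs, which guide the modification of ribosomal RNA, and tRNAs. Short reads counted under such a name can have come from any copy of the sequence.

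The sequences below are shown because they separate the names into those that are found in many genes, those inside another RNA, those almost the same as an abundant microRNA, and those rich in G and C. RefSeq (GRCm38.p6) held a mature sequence for 27 of the 36 names, and 9 had none, among them miR-5099 and miR-1957a, the names with the highest counts. Each is written 5′ to 3′ with its seed, bases 2 to 8, in capitals.
miR-3473a: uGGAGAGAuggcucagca
miR-3473b: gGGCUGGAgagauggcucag
miR-3473f: cAAAUAGGacuggagagaug
miR-5128: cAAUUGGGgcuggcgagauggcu
miR-3470b: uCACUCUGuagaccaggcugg
miR-1195: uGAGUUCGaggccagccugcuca
miR-5121: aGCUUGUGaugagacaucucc
miR-3535: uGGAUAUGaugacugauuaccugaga
miR-1983: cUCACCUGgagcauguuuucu
miR-692: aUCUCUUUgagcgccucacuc
miR-690: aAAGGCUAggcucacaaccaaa
miR-101c: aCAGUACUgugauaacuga
miR-101a-3p: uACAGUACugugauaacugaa
miR-6538: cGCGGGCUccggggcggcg
miR-6236: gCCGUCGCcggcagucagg
miR-2137: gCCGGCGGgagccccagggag
miR-5126: gCGGGCGGggccgggggcgggg
miR-1895: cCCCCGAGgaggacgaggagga
miR-5100: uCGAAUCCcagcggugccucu
miR-3968: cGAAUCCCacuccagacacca
No seed was shared, since the 27 sequences had 27 distinct seeds. The names numbered miR-3473 nevertheless overlap outside the seed. The stretch UGGAGAGAUGGCUCAG, of 16 bases, begins at base 1 of miR-3473a and at base 5 of miR-3473b, and CUGGAGAGAUG is common to miR-3473b and miR-3473f. The stretch CGAAUCCCA is common to miR-5100 and miR-3968.

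The label "repeat-like" held for a part of the names. The mature sequence was searched on both strands of the transcripts of 55450 GENCODE M21 genes, and genes annotated as microRNAs were not counted. The whole sequence of miR-3470b was found in 1016 genes, that of miR-3473b in 726 and that of miR-3473a in 281. These 3 were 11.1% of the names with a sequence, and among 310 names with an arm and at least 10 counts 0 had as many as 10 such genes. A stretch of 16 bases was found in at least 10 genes for 8 of the 27 names, against 0.645% of the names with an arm. Besides the 3 above, these were miR-1195 (1382 genes), miR-5128 (81), miR-1895 (57), miR-690 (22) and miR-5126 (18). For miR-3473f only 3 genes held such a stretch, although it carries the same number as miR-3473a and miR-3473b. Of the 27 names, 10 had no such gene, so their sequence was not found outside microRNA genes in this search. Introns, intergenic DNA, nuclear tRNAs and the precursor of ribosomal RNA were not searched.

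**Figure D1:**
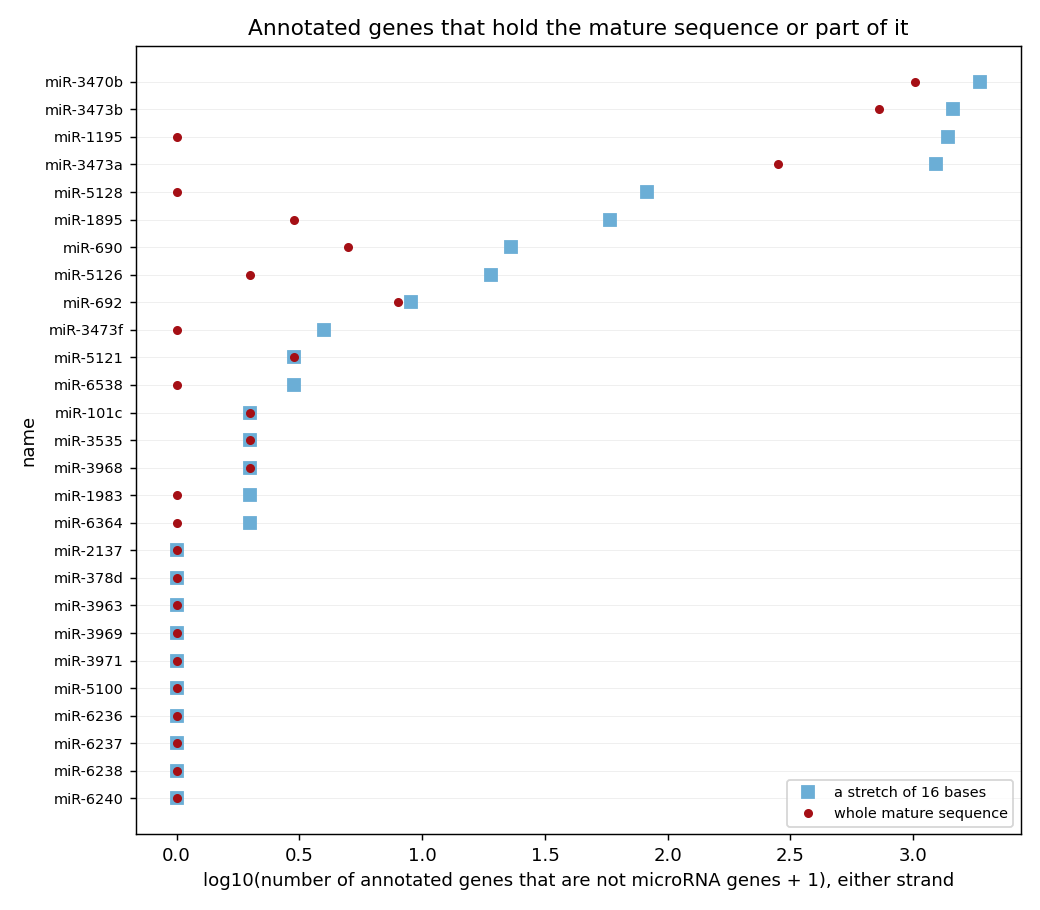
Number of annotated genes, other than microRNA genes, that hold the whole mature sequence (circles) or a stretch of 16 of its bases (squares) on either strand, as log10 of the number plus 1, for the 27 names with a sequence. miR-3470b, miR-3473b, miR-1195 and miR-3473a stand apart, with 1236 genes or more for the stretch, and points at 0 mean that no gene was found.

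A few sequences lie inside, or overlap, a named RNA of another kind. The sequence of miR-5121 (chromosome 7, 45126925 to 45126945, minus strand) lies in Snord33, a snoRNA of the ribosomal protein gene Rpl13a. That of miR-3535 (chromosome 1, 86352062 to 86352087, minus strand) lies in the snoRNA Gm24148 within Ncl, the gene of nucleolin. That of miR-1983 (chromosome 13, 21896930 to 21896950, minus strand) shares 13 of its 21 bases with the RefSeq position of the tRNA gene n-TItat14. The sequence of miR-692 is annotated at 3 places and was found in 7 other genes, among them Ftl1, which encodes the ferritin light chain, and 3 genes named as its pseudogenes or those of Ftl2. Reads from these RNAs and from a hairpin cannot be told apart in the counts.

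Together the 36 names took a larger share of the counts in every tumor than in any oviduct. The share of mouse counts was 0.980% (exact Clopper-Pearson 95% interval 0.949 to 1.01), 0.731% (0.709 to 0.753) and 0.655% (0.626 to 0.684) for oviducts 1, 2 and 3. It was 2.51% (2.45 to 2.57), 3.22% (3.14 to 3.30) and 4.38% (4.28 to 4.49) in tumors 1, 2 and 3. The means were 0.789% ± 0.170 and 3.37% ± 0.945 (SD, n = 3 each). The share was given no test, because the names were chosen with earlier results known. The abundant miR-143-3p sets much of the denominator, with 44.1% to 47.2% of an oviduct library and 13.9% to 60.9% of a tumor library. With miR-143-3p taken out of the denominator the means were 1.45% ± 0.270 and 5.32% ± 1.00.

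The counts were concentrated on a few names. miR-5099, miR-1957a and miR-101c held 25565 of the 29134 counts of all 36 names, or 87.7%. Their part of the names' counts was 92.8% ± 1.73 over the oviducts and 85.4% ± 9.07 over the tumors, where the value of tumor 1 was 75.01% and those of tumors 2 and 3 were 91.5% and 89.7%. The leading name differed between libraries. It was miR-101c in oviduct 1 (56.1% of the names' counts), miR-5099 in oviducts 2 and 3 and tumor 1 (between 47.7% and 49.2%), and miR-1957a in tumors 2 and 3 (53.0% and 58.6%). The other 33 names took 0.0511% to 0.0572% of an oviduct library, against 0.627%, 0.272% and 0.449% of tumors 1, 2 and 3. Between 23 and 27 names had a count in an oviduct, and between 34 and 36 in a tumor, although the tumor libraries were the smaller ones. The rule sets a part of this difference, since 7 names had 0 counts in all oviducts and were chosen through the tumors alone.

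**Figure D2:**
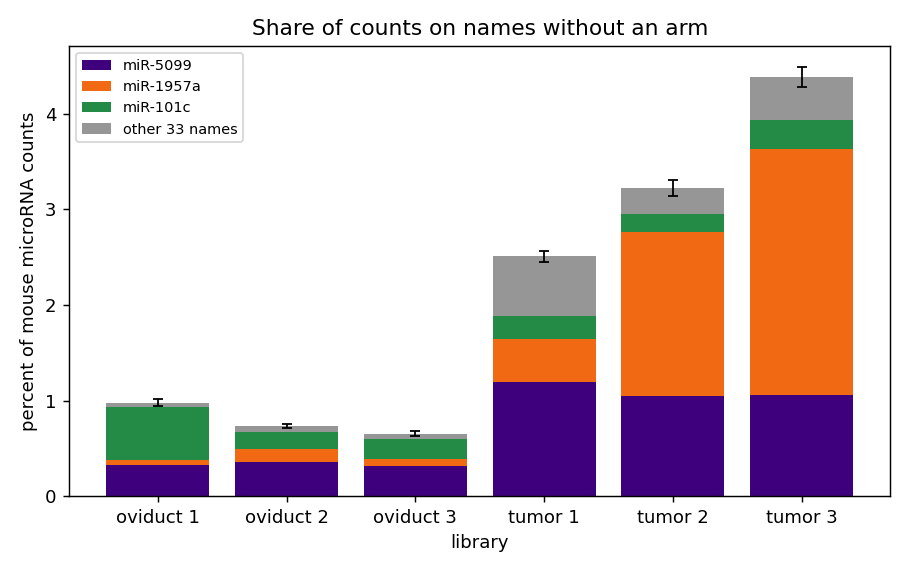
Percent of all mouse microRNA counts on the 36 names in each library, with miR-5099, miR-1957a, miR-101c and the other 33 names stacked and exact 95% intervals on the total. The tumors reach 2.51% to 4.38% and the oviducts 0.655% to 0.980%, and the orange part, miR-1957a, is large in tumors 2 and 3.

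Single names were compared with edgeR's quasi-likelihood test over all mouse names with enough counts (227 names, threshold an adjusted p of 0.05, tumor over oviduct). Levels are CPM, in which each library is scaled to the same total, adjusted with trimmed mean of M-values (TMM) factors. Of the 36 names 19 could be tested and 17 could not. Of the 19, 12 were higher in the tumors and 7 were not called, where 26.9% of all tested names were higher. None, 0 of 19, was lower, where 25.6% of all tested names were, and 0 was lower at an unadjusted p under 0.05 or by DESeq2. This comparison is uneven, since 10 of the 12 had no oviduct past the low-count limit and entered the test only through the tumors. Of the 9 tested names with an oviduct past that limit, 2 rose (22.2%), miR-5099 and miR-1957a. In a bulk sample fewer cells of a type and less RNA per cell cannot be told apart.

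Without the low-count limit all 36 names could be tested, and 24 were higher and 0 lower, where 10.7% of 919 names were higher. Most of those 919 names had few counts, and their median log2 change was 0.82. With a mean of at least 10 CPM required, 21 of 31 names were higher, against 25.0% of all tested, and DESeq2 gave 20 of 35, against 22.7%. All 12 names were among those called in each of these 3 settings. These settings are no more even, since they let in names such as miR-3960 and miR-714, which had no oviduct count. The 7 names at 0 in all oviducts reached 10 counts only through the tumors, which also bears on the overlap given next. The CPM of the groups did not overlap for 25 of the 36 names, each higher in the tumors, against 31.0% of the 390 mouse names with at least 10 counts. No name of the 36 lay lower in every tumor, against 21.3% of the 390. The median log2 fold change was 3.50 over the 19 tested names and 0.20 over all 227, but the low-count limit bears on this difference. Over the 9 tested names with an oviduct past that limit the median was 0.34. Over all tested names it was -1.04 for 5p names and 0.89 for 3p names.

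**Figure D3:**
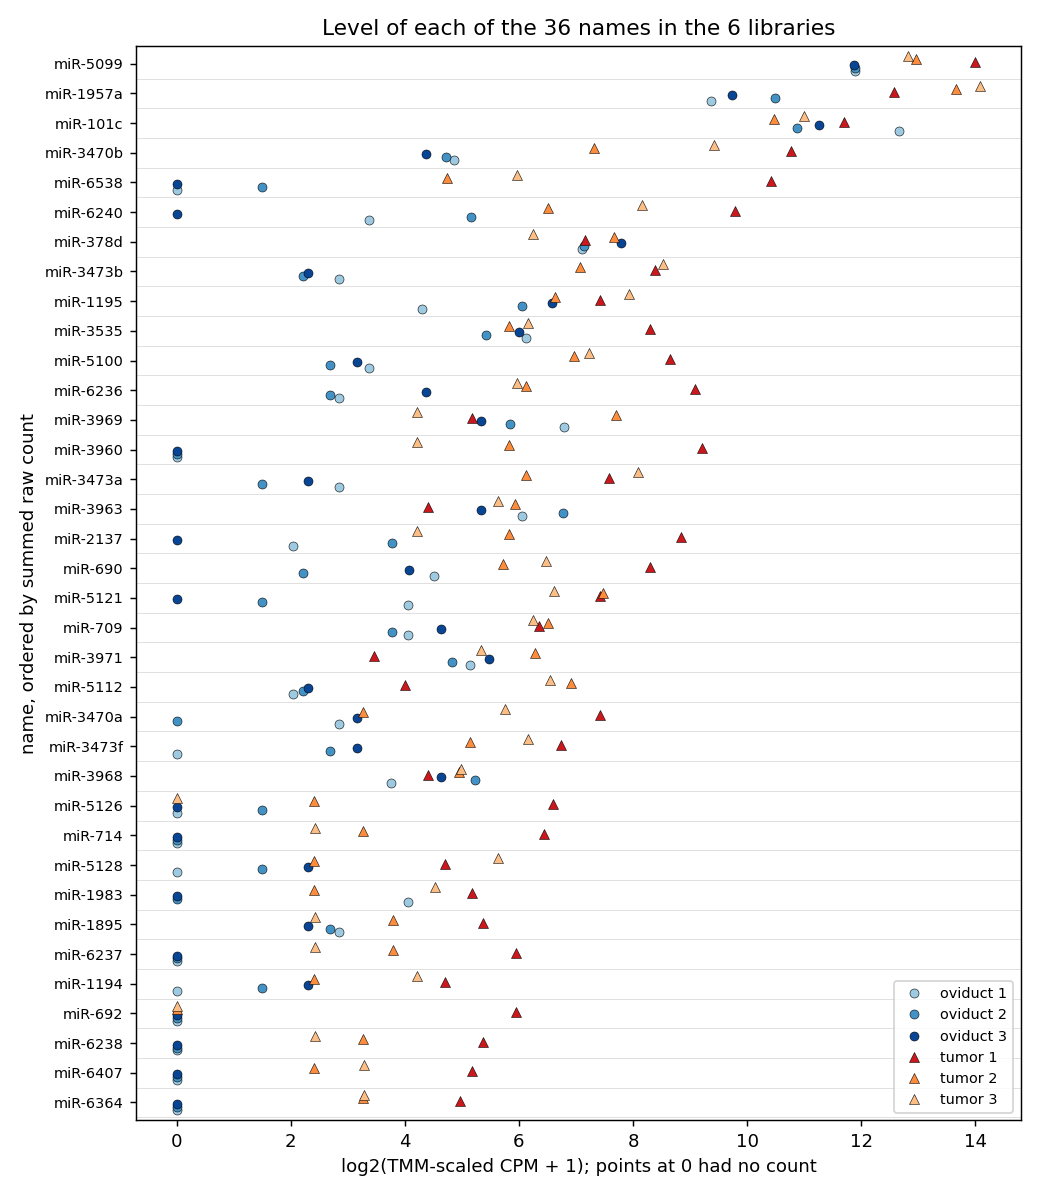
TMM-scaled CPM of each of the 36 names in each library, as log2 of CPM plus 1, with oviducts as circles, tumors as triangles and names ordered by summed raw count. The tumors lie above the oviducts without overlap for 25 names, and tumor 1 (red) is the highest tumor for 23.

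The leading names, miR-5099 and miR-1957a, rose. miR-5099 was at 3779, 3813 and 3751 CPM in the oviducts and at 16401, 7977 and 7184 CPM in the tumors. The oviducts lay within 1.02 times of each other, and tumor 1 stood above the other tumors on this scale. Its rise was 2.78-fold (log2 1.48, SE 0.36, edgeR adjusted p = 0.00618). This call was lost without oviduct 1 (adjusted p = 0.0629), oviduct 3 (0.0722) or tumor 1 (0.0579), where the log2 change was 1.12, 1.10 and 0.74, and with TMM factors from 3p names (log2 0.62, adjusted p = 0.210). As a share of library totals miR-5099 was nearly level among the tumors, at 1.20%, 1.05% and 1.06%, against TMM-scaled levels that differed 2.28-fold.

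miR-1957a was at 658 CPM, 1442 CPM and 846 CPM in the oviducts and at 6088 CPM, 12949 CPM and 17396 CPM in the tumors. It was lowest in tumor 1, the opposite order to miR-5099 on the TMM scale but not by library totals. Every tumor lay above every oviduct for miR-1957a. Its rise was 12.3-fold (log2 3.63, SE 0.48, edgeR adjusted p = 0.000315) and was called in each of the 16 settings tried. The near relative by number, miR-1957b, had 2 counts, both in tumors.

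miR-101c was not called, and its counts were nearly identical to those of miR-101a-3p. It had 2066, 1032 and 617 counts in oviducts 1, 2 and 3, against 657, 332 and 465 in tumors 1, 2 and 3. miR-101a-3p, a microRNA known to repress the histone methyltransferase Ezh2, had 2065, 1032 and 617 beside 657, 332 and 465. All 19 bases of miR-101c (chromosome 9, 3038680 to 3038698, minus strand) are bases 2 to 20 of miR-101a-3p. The CPM values of miR-101c were 6442, 1884 and 2439, against 3308, 1425 and 2044 for the tumors (log2 -0.67, SE 0.52, edgeR adjusted p = 0.299). Without tumor 1 the log2 change was -1.29 (adjusted p = 0.0604), and with TMM factors from 3p names the name was called lower (-1.57, adjusted p = 0.0427). Without miR-101c the names' share of mouse counts was 0.477% ± 0.0668, against 3.13% ± 0.910 for the tumors.

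miR-378d, numbered like the metabolic microRNA miR-378a, also overlapped between the groups. It was at 137 CPM, 141 CPM and 221 CPM in the oviducts and at 141 CPM, 202 CPM and 74.7 CPM in the tumors (log2 -0.25, SE 0.52, edgeR adjusted p = 0.691). For miR-378a-3p the log2 change was 0.00 (SE 0.39, adjusted p = 0.997), at a level of 1780 CPM to 4280 CPM over the 6 libraries.

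The family miR-3473 had 3 members past the minimum, and all 3 rose. miR-3473b (chromosome 10, 41670774 to 41670793, in an intron of Ccdc162 on the opposite strand) had 2, 2 and 1 oviduct counts, against 66, 31 and 84 for the tumors. This was 6.24 CPM, 3.65 CPM and 3.95 CPM against 332 CPM, 133 CPM and 369 CPM, with no overlap and tumor 2 the lowest tumor. Its log2 change was 5.82 (SE 0.71, edgeR adjusted p = 0.000143), the largest among the 19 tested names.

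miR-3473a (chromosome X, 162874920 to 162874937, in an intron of Syap1) had the same order of the tumors. It was at 6.24 CPM, 1.83 CPM and 3.95 CPM in the oviducts and at 191 CPM, 68.7 CPM and 273 CPM in the tumors (log2 5.43, SE 0.81, edgeR adjusted p = 0.000467). miR-3473f (chromosome 1, 106546536 to 106546555, in an intron of Bcl2, which encodes an inhibitor of cell death) was lower in the tumors than its relatives, at 106 CPM, 34.3 CPM and 70.3 CPM. In the oviducts it was at 0, 5.48 CPM and 7.91 CPM (log2 3.85, SE 0.73, adjusted p = 0.00151), and the change was 3.04 without oviduct 1 and 3.22 without tumor 1. Pooled, the family was at 13.1 ± 2.49 CPM in oviducts, against 526 ± 254 CPM in tumors (SD, n = 3 each). Its other members, miR-3473c, miR-3473d, miR-3473e and miR-3473g, had 5, 2, 1 and 1 counts over all libraries.

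The family miR-3470 had the widest spread between tumors of the 2 families. miR-3470b (chromosome 16, 44013885 to 44013905, in an intron of Gramd1c on the opposite strand) was at 28.1 CPM, 25.6 CPM and 19.8 CPM in the oviducts and at 1742 CPM, 159 CPM and 686 CPM in the tumors. The highest tumor was 11.0 times the lowest, and all lay above the oviducts. Its log2 change was 5.10 (SE 0.83, edgeR adjusted p = 0.000976), and 3.88 without tumor 1. miR-3470a, which was not tested, had 2, 0 and 2 oviduct counts, against 34, 2 and 12 for the tumors. Pooled, the family was at 29.2 ± 4.56 CPM in oviducts, against 940 ± 890 CPM in tumors. Without tumor 1 the tumor mean was 453 CPM. Since miR-3473a and miR-3473b share sequence with each other and with many genes, the family members are not independent measurements.

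**Figure D4:**
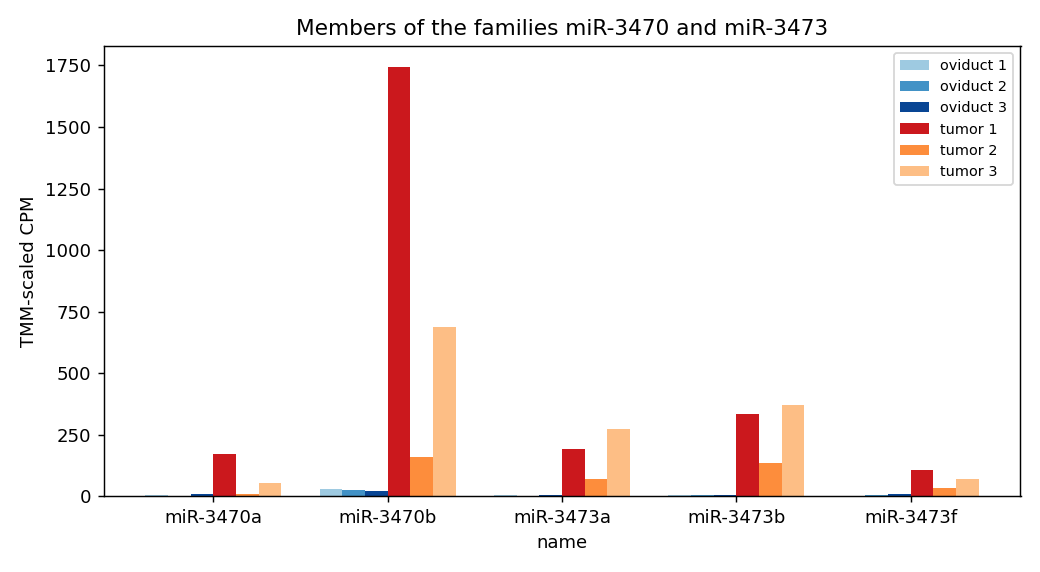
TMM-scaled CPM of the members of miR-3470 and miR-3473 in each of the 6 libraries. The oviduct bars stay at or below 28.1 CPM, miR-3470b reaches 1742 CPM in tumor 1 and 159 CPM in tumor 2, and tumor 2 is the lowest tumor for each of the 5 names.

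miR-1195, whose 16-base stretches are also found in many genes, was at 18.7 CPM, 65.7 CPM and 94.9 CPM in the oviducts and at 171 CPM, 98.7 CPM and 242 CPM in the tumors. The groups did not overlap, but the change missed the threshold (log2 1.52, SE 0.65, edgeR adjusted p = 0.0705). It passed with library totals alone (adjusted p = 0.0207), with TMM factors from names with an arm (0.0440) and without tumor 2 (0.0391). The log2 change was smaller without oviduct 1 (0.81, adjusted p = 0.441) and with TMM factors from 3p names (0.63, adjusted p = 0.379). miR-5128 had 0, 1 and 1 oviduct counts, against 5, 1 and 11 for the tumors, a ratio of pooled shares of 17.7 with an exact counting interval of 4.19 to 158.

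Of the names inside snoRNAs, miR-5121 rose and miR-3535 was not called. miR-5121 was at 15.6 CPM, 1.83 CPM and 0 in the oviducts and at 171 CPM, 176 CPM and 96.7 CPM in the tumors (log2 4.62, SE 0.85, edgeR adjusted p = 0.00129). Its log2 change was 6.20, 3.99 and 3.81 without oviducts 1, 2 and 3, whose counts were 5, 1 and 0. miR-3535 was at 68.6 CPM, 42.0 CPM and 63.2 CPM in the oviducts and at 312 CPM, 55.8 CPM and 70.3 CPM in the tumors (log2 1.33, SE 0.71, adjusted p = 0.137). On the TMM scale tumor 1 stood far above the oviducts, tumor 3 just above the highest of them, and tumor 2 within their range. By library totals every tumor lay above every oviduct. Without tumor 1 the log2 change was -0.12, while without tumor 2 it was 1.74 (adjusted p = 0.0489). miR-1983, at the tRNA gene, had 5, 0 and 0 oviduct counts, against 7, 1 and 5 for the tumors, so the groups overlapped.

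The remaining called names were miR-6240, miR-5100, miR-6236, miR-690 and miR-709. miR-6240 (chromosome 5, 114851973 to 114851998, between genes) was at 9.35 CPM, 34.7 CPM and 0 in the oviducts and at 881 CPM, 90.2 CPM and 286 CPM in the tumors (log2 4.61, SE 1.07, edgeR adjusted p = 0.00603). Its log2 change was 6.17 without oviduct 2, 3.79 without oviduct 3 and 3.26 without tumor 1. miR-5100 (chromosome 11, 60728698 to 60728718, in an intron of Mief2, a gene of mitochondrial fission) was at 9.35 CPM, 5.48 CPM and 7.91 CPM against 398 CPM, 125 CPM and 149 CPM (log2 4.85, SE 0.73, adjusted p = 0.000473). Without tumor 1 this was 3.90. Both names were highest in tumor 1 and did not overlap between the groups.

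miR-6236 (chromosome 9, 110281353 to 110281371, between genes) was at 6.24 CPM, 5.48 CPM and 19.8 CPM in the oviducts and at 544 CPM, 68.7 CPM and 61.5 CPM in the tumors (log2 4.48, SE 1.07, edgeR adjusted p = 0.00676). Its call was lost without oviduct 2 (adjusted p = 0.0521), and without oviduct 1 or tumor 1 the log2 change was 3.82 and 2.45. miR-690, annotated in an intron of Fgf12 (chromosome 16, 28599940 to 28599961) but found in 16 annotated microRNA genes, was at 21.8 CPM, 3.65 CPM and 15.8 CPM against 312 CPM, 51.5 CPM and 87.9 CPM (log2 3.50, SE 0.89, adjusted p = 0.00899). Its call was lost without oviduct 2 (log2 2.88, adjusted p = 0.0584), and without tumor 1 the change was 2.17. miR-709 was the most even of the called names among the tumors, at 80.6 CPM, 90.2 CPM and 74.7 CPM, against 15.6 CPM, 12.8 CPM and 23.7 CPM in the oviducts (log2 2.26, SE 0.46, adjusted p = 0.00246). Its call was lost without oviduct 1 (adjusted p = 0.0597), and the log2 change was 1.40 with TMM factors from 3p names.

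Several names had almost no count in the oviducts. At 0 in all 3 oviducts were miR-3960, miR-714, miR-6237, miR-692, miR-6238, miR-6407 and miR-6364. A count of 0 in the oviducts together allows up to 2.39 CPM by library totals, the level of 3 counts among their 1253043. miR-3960 had 117, 13 and 4 counts in the tumors, and its pooled tumor level was 92.9 times that limit. The others were between 6.93 times (miR-6407 and miR-6364) and 13.9 times (miR-714) the limit, and miR-692 had its 12 tumor counts in tumor 1 alone. These multiples make no allowance for counting error in the tumor counts. miR-6538 had 1 oviduct count and 270, 6 and 14 tumor counts, a ratio of 603 with an exact counting interval of 107 to 23892. Without the low-count limit it was not called (edgeR adjusted p = 0.163), and it was not among the DESeq2 calls. It was called with the filter on mean CPM and in each fit that left out a single library. Such an interval covers counting error only, and the limit covers that of the oviducts only. Both leave out the spread between tumors, which for these names was large.

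For the typical name of the 36, but not for their sum, tumor 1 held a large part of the tumor counts. It gave 45.2% of all mouse counts of the tumors and 35.5% of those on the 36 names. Of the tumor counts of miR-1957a alone it gave 14.8%. Over the 33 names other than miR-5099, miR-1957a and miR-101c it gave 59.3%. Its part of a name's tumor counts had a median of 54.7% over the 36 names and of 27.3% over the 322 mouse names with at least 10 tumor counts. It was at least 75% for 8 of the 36, miR-692, miR-5126, miR-6538, miR-3960, miR-714, miR-2137, miR-6236 and miR-6237, against 4.97% of the 322. With TMM scaling tumor 1 was the highest tumor for 23 of the 36 names, and with library totals alone for 19. The names miR-5112, miR-3971, miR-3969 and miR-3963 went the other way, with 5.77%, 6.90%, 11.9% and 13.8% of their tumor counts in tumor 1.

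The names rich in G and C were among those concentrated in tumor 1. The median G and C content was 57.1% over the 27 names with a sequence and 47.8% over 310 names with an arm. It was at least 70% for 5 names, miR-5126 (100%), miR-6538 (94.7%), miR-2137 (85.7%), miR-6236 (78.9%) and miR-1895 (72.7%). Tumor 1 held between 66.7% (miR-1895, 8 of 12 counts) and 95% (miR-5126, 19 of 20 counts) of their tumor counts. Among the 6 names with an arm of such content the part was between 12.5% (miR-700-3p) and 97.1% (miR-615-5p). This grouping was chosen after the values were seen and was given no test. Tumor 1 also differed in marker microRNAs, with 11582 CPM over 3 red-cell names against 1868 CPM and 2523 CPM in tumors 2 and 3. The oviducts lay between these, at 4476 CPM to 5653 CPM, and of the 2 red-cell names tested 1 was called higher and 0 lower. Over 3 smooth muscle and fibroblast names it was at 835405 CPM against 210557 CPM and 94621 CPM, and 489628 CPM to 557783 CPM in the oviducts. That sum was mostly miR-143-3p, with 60.9%, 27.7% and 13.9% of the mouse counts in tumors 1, 2 and 3. Of the 3 names 2 were called lower in the tumors and 0 higher. The part of these markers in the pattern was not tested.

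Names whose groups overlapped without a call included miR-3969, miR-3963, miR-3971 and miR-3968. miR-3969 was at 109 CPM, 56.6 CPM and 39.5 CPM in the oviducts and at 35.2 CPM, 206 CPM and 17.6 CPM in the tumors (log2 0.34, SE 0.84, edgeR adjusted p = 0.744), so tumor 2 was high and the others low, and without tumor 2 the value was -1.34. miR-3963 had a log2 change of -0.73 (SE 0.57, adjusted p = 0.291) and miR-3971 one of 0.31 (SE 0.60, adjusted p = 0.676). miR-3968 was not tested, with 30 oviduct and 18 tumor counts. The overlap of CGAAUCCCA with miR-5100 therefore joins a name that rose and a name whose groups overlapped.

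The names left out by the rule show the range among other names without an arm. miR-451a, a red-cell microRNA made without Dicer, was at 137 CPM to 165 CPM in the oviducts and at 1088 CPM, 150 CPM and 330 CPM in the tumors, with the same order of the tumors as miR-3470b (log2 1.76, SE 0.65, edgeR adjusted p = 0.0449). miR-484 was not called (log2 0.61, adjusted p = 0.231), and miR-28c fell (log2 -1.93, adjusted p = 0.0106).

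The tissue labels were checked on marker names fixed for the purpose. Over 5 miR-34 and miR-449 names of multiciliated cells the summed level was 14800 CPM to 21584 CPM for the oviducts, against 418 CPM to 1198 CPM for the tumors, and 3 were lower. Over 5 epithelial names it was 6941 CPM to 11969 CPM and 3857 CPM to 7015 CPM, with 1 lower. Over 5 leukocyte names it was 1391 CPM to 2360 CPM and 1380 CPM to 7118 CPM, with 0 called in either direction. Over 2 endothelial names it was 7146 CPM to 9548 CPM and 15198 CPM to 20196 CPM, with 2 higher. All but 1 multiciliated and 1 red-cell name had a count in every library. What part these differences have in the rises above was not tested.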

How the data were processed

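The labels' protocols name miRNeasy for total RNA and TruSeq small RNA for the libraries, and the submitters' processing notes name cutadapt. Per the file headers, the authors counted reads in BAM files made after trimming. Not given in the sources used here are the aligner, the counting program, the microRNA reference, the build, and how reads that match several names were assigned. The deposited values are raw counts per name with no normalization.

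The 67 names of other species, with 10 counts in all, were left out. The test of the counts was that of edgeR 4.0.16 (R 4.3.3), with filterByExpr at a minimum count of 10, TMM factors (0.734 to 1.49) and the robust quasi-likelihood test, on all mouse names. Two-sided p-values were adjusted by Benjamini-Hochberg over the 227 tested names, and the test was checked on simulated counts. The labels give oviducts and tumors the same replicate numbers without saying that they pair. A floor of 3 counts was 5.17 to 19.5 CPM in single libraries. Within groups no library repeated another (chi-square over its degrees of freedom at least 24.4).

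Sequences and positions came from RefSeq and GENCODE M21 on GRCm38. Figures used matplotlib 3.10.9. Alternatives were DESeq2 1.42.0, other scalings, filters and minimums, a replicate block, and leaving out each library. The names described, and the lists, were chosen with earlier results of these data known. Values are given for the 15 names with the most counts, families with at least 2 members and called names; other names were singled out after their values were seen.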

Additional observations from a re-analysis of the deposited data

Results flagged for a closer look

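Names without an arm below the minimum of 10 counts also took more of the counts in the tumors. The 93 names with 1 to 9 counts, which enter no comparison of the report, held 72 oviduct and 133 tumor counts, or 0.00575% and 0.0221% of the mouse counts. They were picked out because each tumor lay above each oviduct: 0.0316%, 0.00906% and 0.0201% in tumors 1, 2 and 3 against 0.00534% to 0.00639% in the oviducts. The same share was not taken for names with an arm, so it is not shown to be particular to these names. Without the low-count limit the median log2 change over 919 mouse names was 0.82, against 0.20 over the 227 tested names.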

How the results depend on the processing

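Of 12 rises, 12 stayed called with RLE or upper-quartile factors, library totals alone, TMM on names with an arm, identical rows kept as 1, and the replicate block, and 11 with TMM on 3p names, where miR-5099 was lost (log2 0.62, adjusted p = 0.210) and 2 names, miR-101c and miR-3963, were lower. The block gave 12 rises, but same-numbered libraries did not deviate together (r = -0.03, 0.10 and -0.13 for numbers 1, 2 and 3). TMM on 3p names moved the median of all names from 0.20 to -0.73, and library totals alone to 0.65. Rises numbered 24 with no low-count filter, 21 with a filter on mean CPM (minimum 10) and 20 by DESeq2, where more names were tested, and between 13 and 16 without single libraries, of which between 10 and 12 were among the 12. Falls numbered 0 without any single library. Without miR-143-3p in the denominator the share was 1.45% and 5.32%. Leaving out miR-101c, chosen after seeing the data, gave a share of 0.477% in the oviducts, and there the top 1, 3 and 5 names held 70.5%, 88.9% and 89.2% of the names' counts against 43.7%, 92.8% and 93.1%. Leaving out single libraries gave shares of 0.693% to 0.856% and 2.86% to 3.80%, top 1 parts of 40.9% to 49.0% and 28.4% to 40.2%, top 3 parts of 91.8% to 93.5% and 82.4% to 90.6%, and top 5 parts of 92.2% to 93.8% and 88.1% to 92.3% in oviducts and tumors. It gave pooled levels of miR-3470 of 26.6 to 31.0 and 453 to 1326 CPM, and of miR-3473 of 11.7 to 14.1 and 433 to 671 CPM. Among names not called in the report, the sign changed in places: miR-378d with library totals alone (0.13), miR-3535 without tumor 1 (-0.12, against 1.74 without tumor 2, where it was called), and miR-3969 with TMM on 3p names (-0.50), with the filter on mean CPM (-0.014), with the replicate block (-0.18), without oviduct 3 (-0.30) and without tumor 2 (-1.34), against 0.66 without tumor 3 and 0.83 with library totals alone. The cause was not tested. Counts limit the names with few oviduct reads.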
